A study of Mus musculus with 10 samples.

Results

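Wnt feedback inhibitors are genes whose products dampen the Wnt pathway. The set examined here was named gene by gene and comprised 9 genes: Axin2, Axin1, Nkd1, Nkd2, Sp5, Apcdd1, Notum, Wif1 and Dkk3. All 9 were found, each on a single row, among the 23969 gene symbols of the deposited expression table. Of these 9, 5 reached at least 1 FPKM in at least 2 libraries, as did 11454 genes in all. FPKM scales the fragments of a gene by transcript length and by the library total, which helps to set levels side by side between genes and libraries. It does not remove every shift between libraries, as described below for the controls.

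Bulk RNA sequencing measured transcripts of jejunal cells, taken from the proximal part and sorted as GFP-positive, of Lgr5-eGFP-IRES-CreER mice, in which the Lgr5 locus drives GFP. All mice had received an adenovirus intravenously. It carried Rspo1 in the R-spondin gain of function group (3 libraries), the extracellular domain of LGR5 in the loss of function group, called LGR5-ECD below (3 libraries), and Fc in the control group (2 libraries). The series text calls these biological replicates. The sources used here give no age, viral dose or time after infection. The virus acts on the whole animal, and the labels do not say which tissue made the secreted protein. The control columns state neither the sort nor the sample and were read as GFP-positive Fc cells from the series text, on which every comparison with Fc rests.

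In canonical Wnt signalling a Wnt ligand binds Frizzled and LRP receptors, a complex that destroys beta-catenin is switched off, and beta-catenin joins TCF/LEF factors on target genes. R-spondins bind LGR receptors and keep the ubiquitin ligases RNF43 and ZNRF3 from removing Frizzled, which raises the response to Wnt. In the intestinal crypt this pathway maintains the stem cells at the crypt base. Several of its targets encode inhibitors and so close a negative feedback loop. Axin2 and Axin1 encode scaffolds of the destruction complex, of which Axin2 is the Wnt-induced copy and Axin1 is expressed broadly. NKD1 and NKD2 bind Dishevelled inside the cell. SP5 is a zinc finger transcription factor that acts as a repressor on Wnt target genes. APCDD1 is a membrane glycoprotein that inhibits the pathway at the cell surface. NOTUM is a secreted enzyme that removes the lipid from Wnt ligands, WIF1 is a secreted protein that binds Wnts, and DKK3 is a divergent member of the Dickkopf family of secreted proteins.

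Promoter windows from RefSeq (GRCm38.p6), running from 250 bases before to 50 bases after the annotated start, were at hand for 5 of the 9 genes. They are shown for the 3 of these genes called higher with Rspo1 than with LGR5-ECD, to show which of them holds a TCF/LEF core at the start of the gene. Capitals mark CTTTGAT, searched on both strands, and the rest is in lower case. The files used the build mm9, so these coordinates are those of the RefSeq table and not of the files.
Sp5, chr2:70474673-70474972, plus strand: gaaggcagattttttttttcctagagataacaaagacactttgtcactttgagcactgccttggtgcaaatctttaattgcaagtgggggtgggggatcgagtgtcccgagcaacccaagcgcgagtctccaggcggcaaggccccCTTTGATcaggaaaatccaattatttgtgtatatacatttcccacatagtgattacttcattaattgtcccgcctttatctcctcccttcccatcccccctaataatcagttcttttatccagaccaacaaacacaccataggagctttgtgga
Axin2, chr11:108920099-108920398, plus strand: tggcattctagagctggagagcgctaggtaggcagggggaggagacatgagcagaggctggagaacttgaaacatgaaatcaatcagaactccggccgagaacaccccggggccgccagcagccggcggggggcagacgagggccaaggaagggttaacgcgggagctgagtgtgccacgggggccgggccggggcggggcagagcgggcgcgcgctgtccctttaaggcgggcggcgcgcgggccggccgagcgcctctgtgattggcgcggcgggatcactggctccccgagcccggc
Nkd1, chr8:88527383-88527682, plus strand: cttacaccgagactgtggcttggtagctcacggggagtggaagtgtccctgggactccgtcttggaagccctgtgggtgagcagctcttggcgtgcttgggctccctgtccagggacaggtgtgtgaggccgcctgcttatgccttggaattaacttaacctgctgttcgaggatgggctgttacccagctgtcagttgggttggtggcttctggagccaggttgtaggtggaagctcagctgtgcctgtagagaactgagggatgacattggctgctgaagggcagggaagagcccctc

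The Sp5 window held the motif 1 time, starting at position -104 relative to the annotated start, on the strand of the gene. The windows of Axin2, Nkd1, Nkd2 and Wif1 held 0 matches. Among all 32851 RefSeq promoter windows of this length, 1225 (3.73%) held the motif. The GC content was 45% in the Sp5 window, against 70.0% in the Axin2 window and 58.3% in the Nkd1 window. A match describes letters in a window and shows no binding, and no match says nothing of sites elsewhere.

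Each library is described by few figures, because read totals were not recovered from the values. FPKM summed to between 189335 and 275937 per library. The fewest genes above 0 were in LGR5-ECD replicate 3 (11485, where the other libraries ranged over 13417 to 14197), so its low values are the least certain. Control 2 had a median-ratio size factor of 0.862 and control 1 of 1.04, so most genes read lower in control 2. Rspo1 itself was listed at 0 in all 8 libraries. Lgr5, whose locus drives the sorted GFP, had 96.4, 112.7 and 100.2 FPKM in the Rspo1 libraries, 8.31, 2.84 and 4.28 FPKM in the LGR5-ECD libraries and 40.6 and 22.02 FPKM in the controls. Of 16 mesenchymal and endothelial markers 13 stayed under 1 FPKM in every library, and of 9 immune markers 8 did. Col1a1, Pdgfra, Foxl1, Gli1 and Cd4 were listed at 0 throughout.

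The main comparison asked how the inhibitors differed between gain and loss of R-spondin function. Axin2, Nkd1, Sp5 and Apcdd1 were all higher with Rspo1 than with LGR5-ECD, by between 5.13-fold (Axin2) and 34.7-fold (Nkd1) on the mean FPKM. Axin1 did not pass the test. The other 4 genes, among them all 3 genes of the set that encode secreted proteins, were at the edge of detection in every group. Of the 5 genes tested, 4 were called higher and 0 lower, where 4.92% of all genes tested were called higher and 3.54% lower. The median log2 change of the 5 was 2.38, against 0.08 over all genes tested. Changes are on the scale of log2(FPKM + 1), which understates those of low genes, and tests used limma with Benjamini-Hochberg adjusted p-values called under 0.05.

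**Figure D1:**
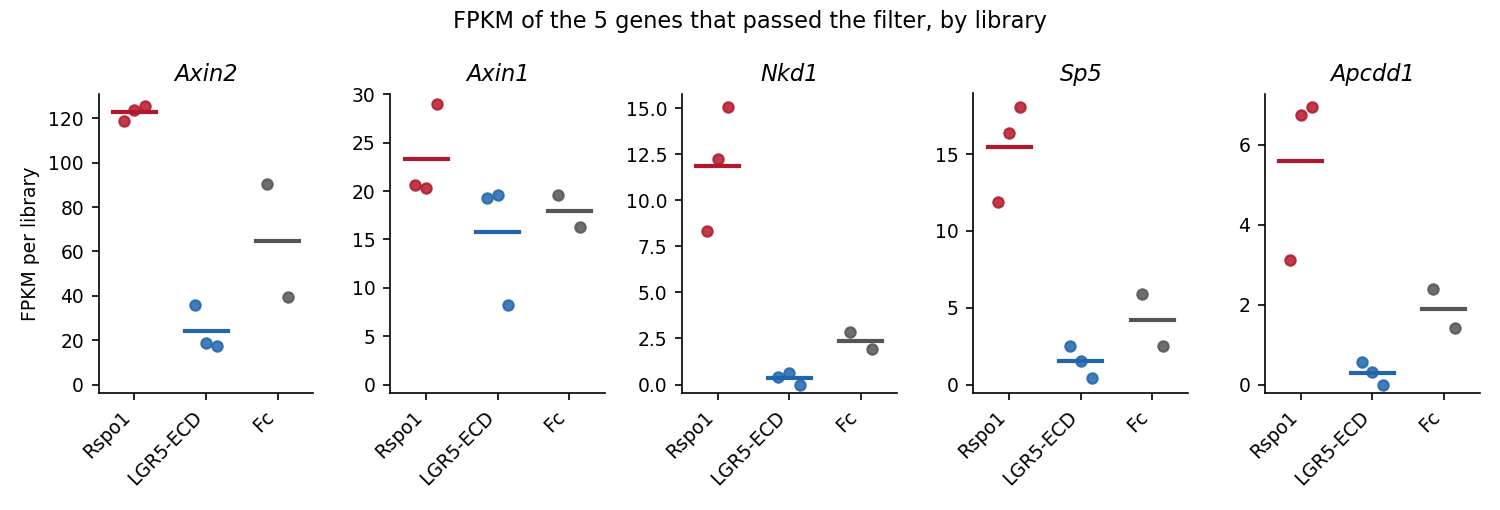
FPKM of Axin2, Axin1, Nkd1, Sp5 and Apcdd1 in each library (points) with the group mean (bar), for Rspo1 (n = 3), LGR5-ECD (n = 3) and Fc (n = 2); each panel has its own linear axis from 0. For Axin2, Nkd1, Sp5 and Apcdd1 every Rspo1 library lies above both controls and every LGR5-ECD library lies below them, while the groups of Axin1 lie close together.

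Axin2 was the most abundant of the 9 in every library but one. It had 118.6, 123.6 and 125.8 FPKM in the Rspo1 libraries, 35.7, 18.6 and 17.4 FPKM in the LGR5-ECD libraries, and 90.4 and 39.3 FPKM in the controls. The Rspo1 libraries were tightly grouped and the other groups were not, and no group overlapped another. Means were 122.7 ± 3.67 FPKM in Rspo1 (SD, n = 3), 23.9 ± 10.2 FPKM in LGR5-ECD (SD, n = 3) and 64.9 ± 36.2 FPKM in Fc (SD, n = 2). The log2 change of Rspo1 against LGR5-ECD was 2.38 (SE 0.33, adjusted p = 0.00187).

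Axin1, the broadly expressed scaffold, had 20.7, 20.4 and 29.0 FPKM in the Rspo1 libraries, 19.3, 19.6 and 8.24 FPKM in the LGR5-ECD libraries, and 19.6 and 16.3 FPKM in the controls. The low value was in LGR5-ECD replicate 3, the library with the fewest genes detected, and the other 7 libraries lay between 16.3 and 29.0 FPKM. In LGR5-ECD replicate 2 Axin1 (19.6 FPKM) stood slightly above Axin2 (18.6 FPKM). The log2 change of Rspo1 against LGR5-ECD was 0.61 (95% confidence interval -0.06 to 1.29, adjusted p = 0.265). Without LGR5-ECD replicate 3 it was 0.23 (adjusted p = 0.609), the lowest of the 15 alternatives. Without LGR5-ECD replicate 1 it was 0.80 (adjusted p = 0.193) and without replicate 2 it was 0.81 (adjusted p = 0.183), the highest. The unadjusted limma p was under 0.05 in these last fits, but Axin1 was called in no alternative.

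Nkd1 had the largest change of the set in this comparison. It stood at 8.32, 12.2 and 15.1 FPKM in the Rspo1 libraries, 0.415, 0.612 and 0 FPKM in the LGR5-ECD libraries, and 2.84 and 1.92 FPKM in the controls. The 3 groups were separate, with every LGR5-ECD library under 1 FPKM. The log2 change of Rspo1 against LGR5-ECD was 3.25 (SE 0.30, adjusted p = 0.000208). The 34.7-fold ratio of means rests on an LGR5-ECD mean of 0.342 ± 0.313 FPKM (SD, n = 3), so it is imprecise.

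Sp5 had 11.9, 16.4 and 18.1 FPKM in the Rspo1 libraries, 2.52, 1.53 and 0.443 FPKM in the LGR5-ECD libraries, and 5.90 and 2.53 FPKM in the controls. The lower control and the highest LGR5-ECD library were almost level, and the Rspo1 libraries stood clear of both groups. The log2 change of Rspo1 against LGR5-ECD was 2.79 (SE 0.37, adjusted p = 0.00152), a 10.3-fold ratio of mean FPKM.

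Apcdd1 had 3.11, 6.76 and 6.94 FPKM in the Rspo1 libraries, 0.570, 0.307 and 0 FPKM in the LGR5-ECD libraries, and 2.38 and 1.41 FPKM in the controls. Rspo1 replicate 1 was the lowest of its group for this gene and lay close to the higher control. The log2 change of Rspo1 against LGR5-ECD was 2.32 (SE 0.33, adjusted p = 0.00233), and the ratio of mean FPKM was 19.2.

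In all 5 genes tested every Rspo1 library lay above every LGR5-ECD library, as in 18.9% of all genes tested. The 4 calls were kept in every alternative of processing and without each library in turn. With the filter at 5 FPKM Nkd1 and Apcdd1 were tested only through Rspo1 libraries, where they were high. Their calls under that filter therefore add no support. Over the 15 alternatives of this comparison the log2 change ran from 2.20 to 2.70 for Axin2 and 3.06 to 5.13 for Nkd1. It ran from 2.44 to 3.53 for Sp5 and 2.14 to 4.16 for Apcdd1. The change could not move with other filters, the compared groups only, the replicate block or without an Fc library. In those alternatives only the adjusted p could change. The upper ends for Nkd1, Sp5 and Apcdd1 came with the smaller pseudocount. The highest adjusted p was 0.0207, for Apcdd1.

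Nkd2, Dkk3, Notum and Wif1 did not reach the filter. Nkd2 had 1.06, 0.335 and 0.597 FPKM in the Rspo1 libraries, 0.255, 0.106 and 0 FPKM in the LGR5-ECD libraries, and 0.223 and 0.830 FPKM in the controls. The controls spanned much of the Rspo1 range. Fitted with no filter, its log2 change of Rspo1 against LGR5-ECD was 0.55 (adjusted p = 0.212).

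Dkk3 was above 0 in all 3 Rspo1 libraries (0.133, 0.197 and 0.475 FPKM) and in 1 LGR5-ECD library (0.0712 FPKM), and was listed at 0 in the other 2 LGR5-ECD libraries and in both controls. Fitted with no filter, its log2 change of Rspo1 against LGR5-ECD was 0.30 (adjusted p = 0.161). Notum was above 0 in Rspo1 replicate 1 alone (0.350 FPKM), and Wif1 in Rspo1 replicate 3 alone (0.0185 FPKM). With read totals unknown, values of this size do not show whether a gene was silent or was missed.

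**Figure D2:**
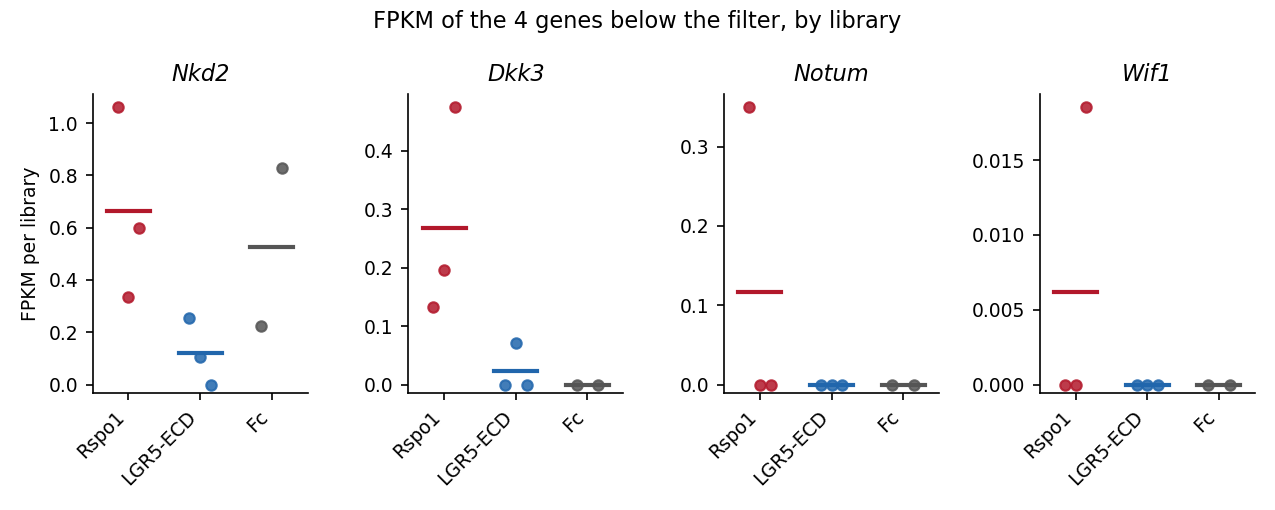
FPKM of Nkd2, Dkk3, Notum and Wif1 in each library (points) with the group mean (bar), for Rspo1 (n = 3), LGR5-ECD (n = 3) and Fc (n = 2); each panel has its own linear axis. The highest value is 1.06 FPKM, for Nkd2 in Rspo1 replicate 1, and most points of Notum and Wif1 are at 0.

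Ordered by mean FPKM in Rspo1 cells, the set ran Axin2 (122.7 ± 3.67), Axin1 (23.4 ± 4.93), Sp5 (15.5 ± 3.18), Nkd1 (11.9 ± 3.38), Apcdd1 (5.60 ± 2.16) and then Nkd2 (0.664 ± 0.367; SD, n = 3 each). Sp5 and Nkd1 overlapped, so their order is not resolved, and the other neighbours in this order did not overlap. In LGR5-ECD cells the order was Axin2 (23.9 ± 10.2), Axin1 (15.7 ± 6.48), Sp5 (1.499 ± 1.04), Nkd1 (0.342 ± 0.313), Apcdd1 (0.292 ± 0.285) and Nkd2 (0.120 ± 0.128; SD, n = 3 each), and each gene overlapped the next except Axin1 and Sp5. In controls the order was Axin2 (64.9 ± 36.2), Axin1 (17.9 ± 2.33), Sp5 (4.21 ± 2.39), Nkd1 (2.38 ± 0.652), Apcdd1 (1.90 ± 0.684) and Nkd2 (0.526 ± 0.429; SD, n = 2 each), where Nkd1 overlapped both Sp5 and Apcdd1. Axin2 was above 98.8% of all gene symbols in Rspo1 cells.

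The second comparison asked what gain of R-spondin function changed relative to the control virus. Nkd1 rose, with a log2 change of 1.91 (SE 0.33, adjusted p = 0.0282) and a 4.98-fold ratio of mean FPKM. Sp5 (log2 change 1.72, SE 0.41, adjusted p = 0.0723), Apcdd1 (1.15, SE 0.37, adjusted p = 0.158) and Axin2 (1.03, SE 0.36, adjusted p = 0.192) did not pass, although all 3 Rspo1 libraries exceeded both controls for each. Axin1 had a log2 change of 0.35 (95% confidence interval -0.40 to 1.11, adjusted p = 0.639). Of 5 genes tested 1 was called higher and 0 lower by limma, where 0.672% of all genes tested were called higher and 0.576% lower, and 4 of the 5 had an unadjusted p under 0.05. Rspo1 libraries lay wholly above both controls in 5 of the 5 genes, as they did in 26.2% of all genes tested.

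Nkd1 passed against Fc in 9 of 15 alternatives, among them the filter at 5 FPKM, which it met only through Rspo1 libraries. The Nkd1 call rested on few libraries. Its adjusted p was 0.231 without Fc replicate 2, 0.132 without Rspo1 replicate 2, 0.119 without Rspo1 replicate 3, 0.196 with a pseudocount of 0.1 and 0.0899 with no filter, while its log2 change stayed between 1.71 and 2.25. Sp5 passed in 4 of 15 alternatives, with adjusted p = 0.0422 without Fc replicate 1 and 0.0237 without LGR5-ECD replicate 3. Axin2 passed in 1, without Fc replicate 1 (log2 change 1.62, adjusted p = 0.0439), and its log2 change was 0.43 without Fc replicate 2. Over all genes tested the median log2 change here was 0.16 on the deposited scale, and 0.01 under either other scaling. Among all calls 53.8% were higher in Rspo1 as deposited, against 40.6% with median-ratio scaling and 39.8% with quantile normalization. Under median-ratio scaling the log2 changes were 1.76 for Nkd1 (adjusted p = 0.0251), 1.57 for Sp5, 1.02 for Apcdd1, 0.85 for Axin2 and 0.18 for Axin1.

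The third comparison asked what loss of R-spondin function changed relative to the control virus. Mean levels of the 5 genes were lower in LGR5-ECD cells, but no gene of the set passed the test. The log2 change was -1.36 for Axin2 (SE 0.36, adjusted p = 0.119), -1.35 for Nkd1 (SE 0.33, adjusted p = 0.0997), -1.17 for Apcdd1 (SE 0.37, adjusted p = 0.165) and -1.07 for Sp5 (SE 0.41, adjusted p = 0.234). For Axin1 it was -0.26 (95% confidence interval -1.02 to 0.49, adjusted p = 0.731). By limma 0 of 5 were called in either direction, where 0.271% of all genes tested were called lower and 0.445% higher, and 4 of the 5 had an unadjusted p under 0.05. The calls of all genes were 62.2% higher as deposited, 49.4% with median-ratio scaling and 47.6% with quantile normalization. In 4 of the 5 genes every LGR5-ECD library lay below both controls, as in 12.7% of all genes tested, although for Sp5 the nearest libraries were almost tied (2.52 FPKM in LGR5-ECD replicate 1 and 2.53 FPKM in control 2). Over 15 alternatives none of the 5 was called, and the lowest adjusted p was 0.0533, for Axin2.

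**Figure D3:**
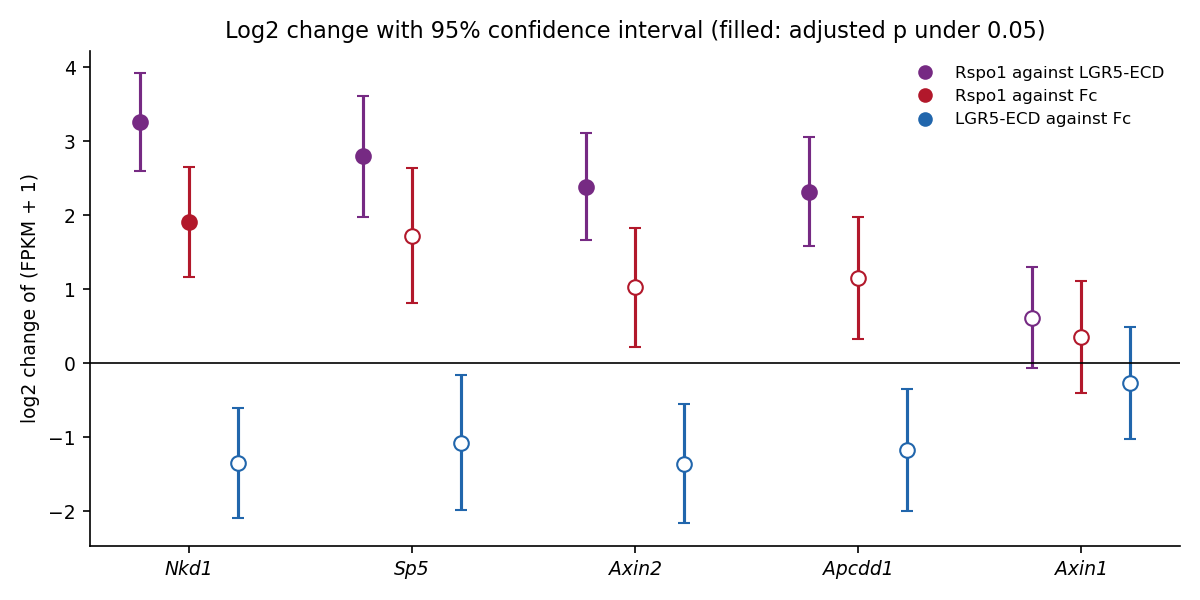
Log2 change of FPKM + 1 (points) with its 95% confidence interval (bars) from limma for Nkd1, Sp5, Axin2, Apcdd1 and Axin1 in 3 comparisons; filled points have an adjusted p under 0.05. Filled points are the 4 for Rspo1 against LGR5-ECD other than Axin1, from 2.32 to 3.25, and Nkd1 for Rspo1 against Fc at 1.91.

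Both comparisons with Fc share its 2 libraries, and those 2 differed. Control 1 exceeded control 2 by 2.30-fold for Axin2, 2.34-fold for Sp5, 1.68-fold for Apcdd1, 1.48-fold for Nkd1 and 1.20-fold for Axin1, and by 1.84-fold for Lgr5. Nkd2 went the other way, at 0.223 FPKM in control 1 and 0.830 FPKM in control 2. Within the LGR5-ECD group replicate 1 was highest for Axin2 (35.7 FPKM), Sp5 (2.52 FPKM), Apcdd1 (0.570 FPKM) and Lgr5 (8.31 FPKM). Replicate 2 was highest for Nkd1 (0.612 FPKM) and Axin1 (19.6 FPKM) and lowest for Lgr5 (2.84 FPKM).

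The position of the control between the treated groups was tested by setting Fc against the midpoint of Rspo1 and LGR5-ECD on the log2 scale. Fc lay 0.17 above the midpoint for Axin2 (95% confidence interval -0.55 to 0.89) and 0.01 above it for Apcdd1 (-0.73 to 0.75). It differed by -0.28 for Nkd1 (-0.94 to 0.38), -0.32 for Sp5 (-1.14 to 0.49) and -0.04 for Axin1 (-0.72 to 0.63). By limma 0 of 5 were called and 0 had an unadjusted p under 0.05, where 0.367% of all genes tested were called. The intervals are wide, so the control is placed only to within about the distance they give. With both comparisons put together, Axin2, Nkd1, Sp5 and Apcdd1 were in the order Rspo1, Fc, LGR5-ECD with no overlap between any groups, as were 2.26% of all genes tested (259 of 11454).

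Related genes of 1 family were set against each other within each library. Axin2 exceeded Axin1 by 2.36 ± 0.25 on the log2 scale in Rspo1, 0.59 ± 0.58 in LGR5-ECD (SD, n = 3 each) and 1.69 ± 0.66 in Fc (SD, n = 2). The Rspo1 range (2.08 to 2.54) lay above the LGR5-ECD range (-0.07 to 0.99), a difference of 1.77 (exact permutation test, two-sided, p = 0.1, the smallest that 3 against 3 libraries allow). Nkd1 exceeded Nkd2 by 2.94 ± 0.66 in Rspo1, 0.24 ± 0.28 in LGR5-ECD (SD, n = 3 each) and 1.16 ± 0.69 in Fc (SD, n = 2). This second pair is a description only: Nkd2 was below the filter, so the difference largely follows Nkd1, and in LGR5-ECD replicate 3 it is 0 because both genes were listed at 0. For Axin2 minus Axin1, Rspo1 and Fc differed by 0.67 (exact permutation test, two-sided, p = 0.4) and LGR5-ECD and Fc by -1.10 (p = 0.2 by the same exact test, the smallest that 3 against 2 libraries allow).

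**Figure D4:**
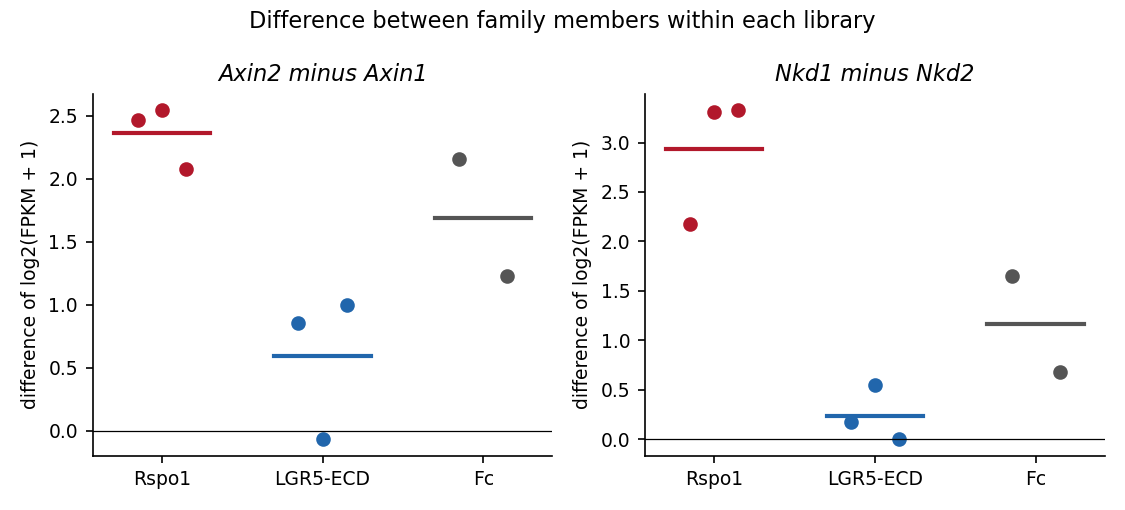
Difference of log2(FPKM + 1) between Axin2 and Axin1 (left) and between Nkd1 and Nkd2 (right) in each library (points) with the group mean (bar), for Rspo1 (n = 3), LGR5-ECD (n = 3) and Fc (n = 2). In both panels the 3 Rspo1 points lie above the 3 LGR5-ECD points, and the Axin2 minus Axin1 difference of 1 LGR5-ECD library is at -0.07.

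Markers of crypt base stem cells were higher with Rspo1 than with LGR5-ECD, as the called inhibitors were, and most enterocyte markers were lower. The summed level of 8 crypt base markers was 1907 to 2043 FPKM in Rspo1, 155.0 to 436.3 FPKM in LGR5-ECD and 480.4 to 1125 FPKM in Fc, and 8 of 8 were called higher in Rspo1 than in LGR5-ECD. Summed enterocyte markers were 188.0 to 230.9 FPKM in Rspo1, 714.2 to 889.2 FPKM in LGR5-ECD and 277.5 to 506.7 FPKM in Fc, and 9 of 10 were called lower in Rspo1 than in LGR5-ECD. Of the goblet markers 4 of 8 were called lower and of the Paneth markers 1 of 10 lower in that comparison. Of the tuft markers 1 of 7 was called lower and of the enteroendocrine markers 1 of 8 higher. Over all genes tested 4.92% were called higher and 3.54% lower there. Against Fc these shares were 0.672% and 0.576% in Rspo1, and 0.445% and 0.271% in LGR5-ECD. A single call in lists of this size is not read as a result. Paneth markers stood apart in the control libraries, with a summed level of 1973 to 3308 FPKM in Rspo1, 2348 to 4917 FPKM in LGR5-ECD and 23.1 to 705.8 FPKM in Fc. Against Fc, 3 of 10 Paneth markers were called higher in Rspo1 (median log2 change 3.63) and 3 of 10 in LGR5-ECD (median 3.90), in both cases Mmp7, Ang4 and Defa22. Among goblet markers 1 of 8 (Spink4) was called higher than Fc in each treated group. Enterocyte markers were called lower than Fc in Rspo1 for 2 of 10 and higher in LGR5-ECD for 2 of 10. Among enteroendocrine markers 1 of 8 (Chga) was called higher in LGR5-ECD than in Fc. Crypt base markers were called higher than Fc in Rspo1 for 2 of 8 (Tnfrsf19 and Lgr5) and lower in LGR5-ECD for 1 of 8 (Lgr5). Of the mesenchymal and immune markers 1 each could be tested, and 0 were called by limma in any comparison. The unadjusted p was under 0.05 only for the immune marker, in Rspo1 against LGR5-ECD (log2 change -0.97). In bulk samples fewer cells of a type and less RNA per cell cannot be told apart. Beyond the crypt base subtraction below, the part of these markers in the changes of the inhibitors was not tested. That subtraction cannot separate cell content from a response that an inhibitor shares with the markers.

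Each inhibitor was also read relative to the median log2 value of the 8 crypt base markers in the same library, a reading added after the values were seen. Axin2 minus that median was 0.21, 0.29 and 0.30 in the Rspo1 libraries, 0.04, -0.28 and -0.26 in the LGR5-ECD libraries and 0.49 and 0.17 in the controls. Rspo1 and LGR5-ECD then differed by 0.43 for Axin2, against 2.38 before. For Nkd1 the relative difference was 1.30, for Sp5 0.84 and for Apcdd1 0.37, and for Axin1 it was -1.33. Between Rspo1 and Fc it was -0.07 for Axin2, 0.81 for Nkd1, 0.62 for Sp5, 0.05 for Apcdd1 and -0.74 for Axin1. The markers Lgr5, Ascl2, Tnfrsf19 and Slc12a2 are Wnt targets themselves, so a response they share with an inhibitor is subtracted as well. For Rspo1 against LGR5-ECD the two-sided exact permutation p was 0.1 for Axin2, Nkd1, Sp5 and Axin1 and 0.4 for Apcdd1, where 0.1 is the smallest possible. The median itself was 6.68 to 6.69 in Rspo1 and 4.47 to 5.15 in LGR5-ECD. A gene that held level would thus read lower in Rspo1 by the subtraction alone, so the p of Axin1 does not bear on its own level. The low values of Nkd1, Sp5 and Apcdd1 in LGR5-ECD libraries are compressed by the pseudocount, so their relative differences are understated.

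Other genes of the pathway were counted from lists that hold none of the 9 but share some genes with each other and with the marker lists. For Rspo1 against LGR5-ECD, 4.92% of all genes tested were called higher and 3.54% lower, which is the background of the counts below. Of 17 further secreted or extracellular Wnt antagonists only 3 were expressed enough to be tested, and 2 of these were higher in Rspo1 than in LGR5-ECD. They were Igfbp4, an insulin-like growth factor binding protein that can inhibit Wnt signalling (log2 change 3.05, SE 0.37, adjusted p = 0.000966), and Sfrp5, a secreted Frizzled-related protein (2.61, SE 0.51, adjusted p = 0.011). Sfrp5 had 28.3, 10.6 and 7.79 FPKM in the Rspo1 libraries, 3.01, 0.516 and 1.15 FPKM in the LGR5-ECD libraries and 15.3 and 5.81 FPKM in the controls, so the Rspo1 and Fc ranges overlapped. The Dickkopf gene Dkk2 and the Frizzled-related genes Sfrp4 and Frzb were listed at 0 in every library.

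Of 36 further membrane, cytoplasmic and nuclear inhibitors 26 were tested, of which 6 were called higher and 0 lower with Rspo1 against LGR5-ECD. The 4 with the smallest p were Csnk1e, the gene of a casein kinase that also acts in favour of the pathway through Dishevelled (log2 change 1.71, SE 0.21), the ubiquitin ligase genes Rnf43 (1.62, SE 0.24) and Znrf3 (1.45, SE 0.25), and the co-repressor gene Tle3 (1.35, SE 0.22). Their adjusted p-values ran from 0.00111 to 0.00631. The list median was 0.23. Each of these 4 changes was smaller than that of any of the 4 called feedback inhibitors, a difference that was not tested.

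Of 43 ligands, receptors and mediators that promote the pathway 29 were tested, with 6 higher and 1 lower in Rspo1 than in LGR5-ECD and a median of 0.38. Besides Lgr5 (4.18, SE 0.32), these included the transcription factor gene Tcf7 (2.28, SE 0.30) and the Frizzled receptor genes Fzd7 (2.04, SE 0.32) and Fzd2 (1.84, SE 0.31). The 1 lower gene was another Frizzled receptor gene, Fzd5 (-1.31, SE 0.25, adjusted p = 0.00957), named after its value was seen. Of 25 other Wnt targets 24 were tested, with 15 higher and 0 lower and a median of 1.38. Ephb3 (3.06, SE 0.36), Sox4 (2.38, SE 0.22) and Cd44 (2.08, SE 0.21) were among them. So were genes already counted above: Lgr5, Tcf7 and Lef1 as activators, and Rnf43 and Znrf3 as inhibitors. Tnfrsf19, Ascl2 and Slc12a2 were counted above as crypt base markers, so the lists are not independent of each other. Against Fc, the secreted and the other inhibitor list had 0 called genes in either treated group by limma, with an unadjusted p under 0.05 for 1 and 9 genes in Rspo1 and for 2 and 8 genes in LGR5-ECD. Lgr5 was the 1 called activator in each (1.75 in Rspo1, adjusted p = 0.047, and -2.43 in LGR5-ECD, adjusted p = 0.025). Of the other targets Mmp7, Jun, Cd44, Tnfrsf19 and Lgr5 were called higher in Rspo1 than in Fc, and 2 were called lower and 1 higher in LGR5-ECD than in Fc (Sox4, Lgr5 and Mmp7). Mmp7 is also a Paneth marker, and Tnfrsf19 and Lgr5 are also crypt base markers.

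The genes whose pattern over the 8 libraries was most like that of each called inhibitor were found by the root mean squared difference between log2 profiles centred on their own mean. Nearest to Axin2 were Rgmb (difference 0.13), Sorcs2 (0.20) and E230029C05Rik (0.21). Rgmb had mean levels of 124.2 FPKM in Rspo1, 21.9 FPKM in LGR5-ECD and 59.0 FPKM in Fc, close to those of Axin2. Rgmb is also among the crypt base markers whose median was subtracted above, so this likeness and that reading are not separate. Nearest to Nkd1 were Phlda1 (0.23), A930009A15Rik (0.33) and Sp5 (0.33). Nearest to Sp5 were Ephb3 (0.23), Esam (0.30) and Rgmb (0.32), and nearest to Apcdd1 were Tifa (0.23), Hunk (0.23) and Mmp15 (0.25). Axin1 ranked 1285 among all genes tested in likeness to Axin2, whereas Apcdd1 ranked 27, Sp5 31 and Nkd1 155. These are descriptions over the same 8 libraries, whose large differences between groups many genes share.

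**Figure D5:**
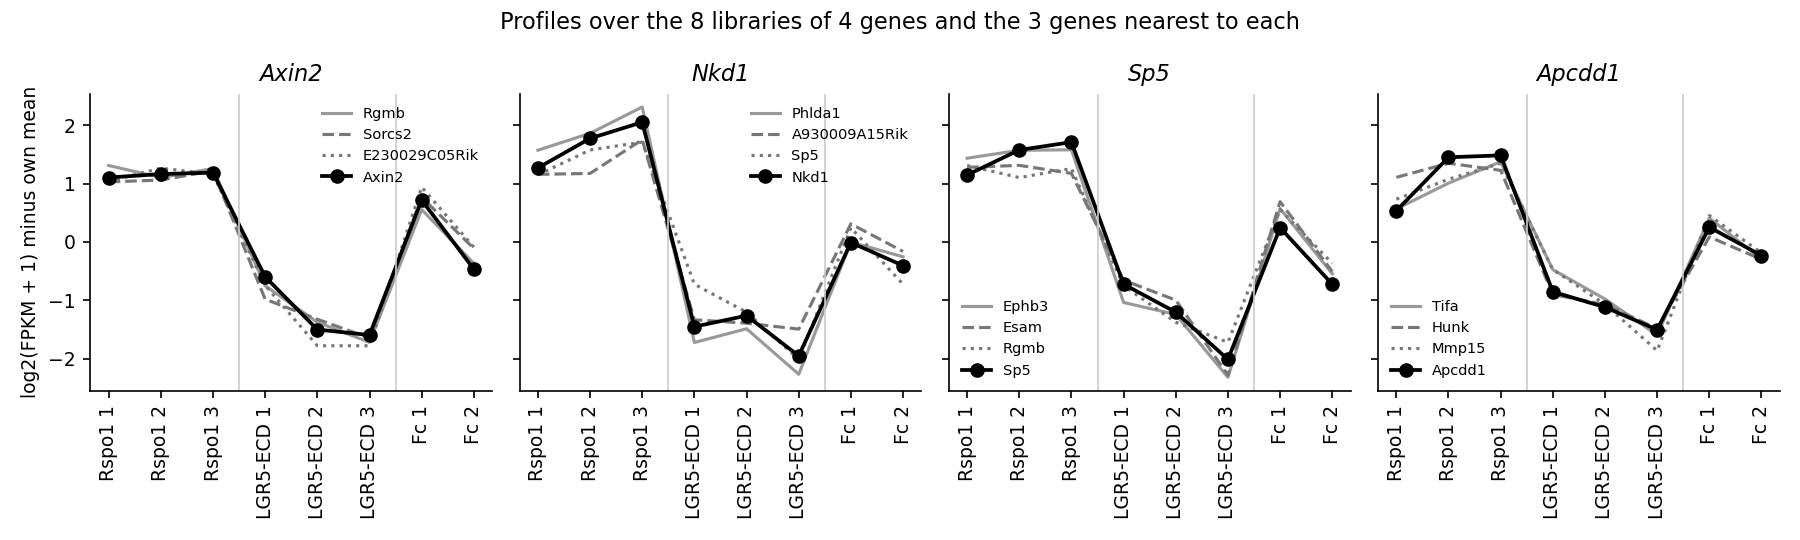
Log2(FPKM + 1) minus its own mean over the 8 libraries for Axin2, Nkd1, Sp5 and Apcdd1 (black, points) and the 3 tested genes nearest to each (grey lines), with libraries ordered Rspo1, LGR5-ECD, Fc. All profiles are high in the 3 Rspo1 libraries and low in the 3 LGR5-ECD libraries, and control 1 lies above control 2 for Axin2 (90.4 against 39.3 FPKM).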

How the data were processed

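The deposited values were FPKM made by the authors, in 1 table of 24510 rows and 8 libraries. The submitters' processing notes name mm9, Cufflinks, DESeq2, HTSeq and TopHat; not given in the sources used here were their roles, versions, gene annotation and whether counting used strand. Fc samples sorted as GFP-negative (2) were not used here. From the table, 27 rows with dates as names and 391 identical rows were dropped and 89 repeated symbols were summed. The log2(FPKM + 1) values of 11454 genes (at least 1 FPKM in at least 2 libraries) were fitted with limma 3.58.1 in R 4.3.3 over the 8 libraries, with group means and trended eBayes. Ratios of values under 0.3 FPKM between libraries did not pile up on steps of whole reads (at most 13.3% within 0.1 log2 of the fullest point), so no count test was run. Same-numbered Rspo1 and LGR5-ECD libraries did not deviate together (correlations -0.0477 to -0.0188). The steps were tested on simulated data. Alternatives were a pseudocount of 0.1, no filter, a filter at 5 FPKM, median-ratio and quantile scaling, fits of the compared groups only, a replicate block and each library left out. For each list, up to 4 called genes of smallest p were named, and for each called member the 3 nearest profiles. The members, lists and tests were chosen with earlier results of these data known. Python 3.11.15, pandas 2.3.3 and matplotlib 3.10.9 were used.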

Additional observations from a re-analysis of the deposited data

How the results depend on the processing

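For Rspo1 against LGR5-ECD 4 inhibitors were called under each of the 15 alternatives, and the 968 called genes became 616 with the replicate block and 415 to 1049 without 1 library each. The block used 6 libraries and changed no call of an inhibitor. The labels do not say whether equal numbers mark paired samples. For the comparisons with Fc a replicate block on the digits in the control column names, chosen after the data had been seen, left 62 called genes in Rspo1 cells, 32 in LGR5-ECD cells and 17 against the midpoint. It called 0 inhibitors in each, and Nkd1 in Rspo1 cells had an adjusted p of 0.0704 (limma). For Rspo1 against Fc the 143 called genes became 74 with a pseudocount of 0.1, 29 with no filter, 246 with quantile normalization, 242 with the compared groups only, and 23 to 481 without 1 library each. The 1 called inhibitor became 0 with the pseudocount of 0.1 or no filter, 2 with quantile normalization or the compared groups only, and 0 to 3 without 1 library each. For LGR5-ECD against Fc the 82 called genes became 12 with a pseudocount of 0.1, 4 with no filter, 4 with the compared groups only, and 0 to 174 without 1 library each. The 0 was without Fc replicate 2, where 1223 genes had an unadjusted p under 0.05, and the 174 without Fc replicate 1. For Fc against the midpoint the 42 called genes became 17 with a pseudocount of 0.1, 7 with no filter, and 3 to 236 without 1 library each. A lone control left in such a fit is assumed to vary like the other groups. Changes of direction were confined to values that missed the threshold in the analysis as reported. Against the midpoint Axin1 was 0.088 with median-ratio scaling and 0.10 with quantile normalization, and Nkd1 was 0.31 with a pseudocount of 0.1. Without 1 library each, the values there ran from -0.24 to 0.082 for Axin1, -0.43 to 0.76 for Axin2, -0.81 to 0.16 for Sp5 and -0.23 to 0.25 for Apcdd1. For LGR5-ECD against Fc, Axin1 ran from -0.46 to 0.12 in this way, with 0.12 without LGR5-ECD replicate 3. The causes of these shifts were not tested. The paralog differences kept their direction with a pseudocount of 0.1, with median-ratio and quantile scaling and without each library in turn, alternatives chosen after the data had been seen. Read depth is unknown, which limits every value under about 1 FPKM.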
